A study of Mus musculus with 6 samples.

Results

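Non-homologous end joining is the pathway that rejoins the broken ends of a DNA molecule directly, without a homologous template. It repairs breaks throughout the cell cycle and is the main route in cells that have stopped dividing, such as neurons, and developing lymphocytes use it to assemble their antigen receptor genes. The Ku heterodimer of Ku70 (gene Xrcc6) and Ku80 (Xrcc5) is a ring that slides onto the broken end, and it then recruits the kinase DNA-PKcs (Prkdc). DNA ligase IV (Lig4) seals the ends together with its partner XRCC4 (Xrcc4), and XLF (Nhej1) joins XRCC4 in filaments that hold the ends in place. Described here are the 9 probe sets that the array's annotation assigns to these 6 genes, out of 45101 probe sets and 18194 named genes.

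The samples were CAD cells, which are mouse neuroblastoma cells of the catecholamine-making lineage, in 2 groups of 3 biological replicates. One group had been transfected with the RIPmiR-124a-2 plasmid, which expresses miR-124a-2 and so supplies miR-124, a microRNA abundant in neurons, and the other with the empty RI vector. The share of cells that took up a plasmid, the time between transfection and harvest, and the relation of the replicates to separate cultures were not given in the sources used here, so the spread below is that between these samples. Each array carried labelled copies of total RNA and gave a log2 signal per probe set. These signals can be compared between arrays for the same probe set, but not between probe sets. The study's title concerns neuronal differentiation and alternative splicing, and the comparison asks which transcripts differ when miR-124 is supplied. The 6 genes were chosen by the pathway with their differences between these same groups already known, so their values are given as a description, and no test of them is offered as support.

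The arrays fell into sets that follow the groups only in part. Signals spread less on empty vector replicate 1 and plasmid replicates 1 and 2 (interquartile range 3.06 to 3.10 in log2 units, here called narrow arrays) than on the remaining 3 (3.26 to 3.35, wide arrays). Both replicate 1 arrays had higher poly-A spike controls (5.96 and 5.97, against 5.57 to 5.71), and in their transferrin receptor controls the 3′ signal exceeded the 5′ signal by 1.34 and 1.55 (log2), against 0.95 to 1.09 elsewhere. Of the catecholaminergic and neuronal markers, 7 of 8 had a listed probe set, and all 7 were brighter than the median probe set. Their mean signal was 8.02 to 8.08 in the empty vector arrays and 8.36 to 8.39 in the plasmid arrays. Of the markers of other cells, 2 of 5 lymphoid, 1 of 4 glial and 2 of 5 fibroblast genes were brighter than the median probe set, so that measure is not specific to the lineage, and their list means lay between 4.25 and 4.64 on every array. Rag1, the nuclease subunit that makes the breaks joined in lymphocytes, lay between 3.27 and 3.38, close to the 3.37 to 3.50 of the TrpnX controls, a bacterial transcript that the samples lack.

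Of the end joining genes, Xrcc6 was lower with the plasmid. Its brighter probe set (1417437_at) read 8.48, 8.50 and 8.53 in empty vector replicates 1, 2 and 3, and 7.22, 7.18 and 7.55 in the plasmid replicates. All 3 plasmid arrays lay below all 3 empty vector arrays, and the gap between the groups was far wider than the spread within either. The means were 8.51 ± 0.02 and 7.32 ± 0.20 (SD, n = 3 per group), a log2 difference of -1.19 (SE 0.12), or a signal 2.28-fold lower with the plasmid. In bulk RNA, less transcript per cell and fewer cells that carry it cannot be told apart. Of 45101 probe sets, 53 (0.118%) had a lower log2 difference.

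In this probe set the difference had the same sign in both array sets, which the lack of overlap between the groups fixed in advance. The difference was -1.28 within the narrow arrays (2 plasmid arrays against empty vector replicate 1) and -0.96 within the wide arrays (plasmid replicate 3 against 2 empty vector arrays). With the array set as a block in the fit it was -1.12 (SE 0.10). This probe set was also brighter in wide than in narrow arrays, by 0.57 on the log2 scale, and 2 of the 3 narrow arrays carried plasmid RNA. Plasmid replicate 3, the wide array of its group, had the highest of the 3 plasmid values.

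The other Xrcc6 probe set (1428504_at) gave no such difference. It read 4.02, 3.92 and 4.07 with the empty vector and 4.14, 3.95 and 4.35 with the plasmid, so the groups overlapped, and the log2 difference was 0.14 (SE 0.12). Its mean over 6 arrays, 4.08, lay under the median of all probe sets, 4.78, and the brightest single reading of the TrpnX controls was 3.70. The 2 probe sets of Xrcc6 therefore differed in their log2 difference by -1.33. Which transcript or which end of it the dim probe set reads was not analysed here.

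**Figure D1:**
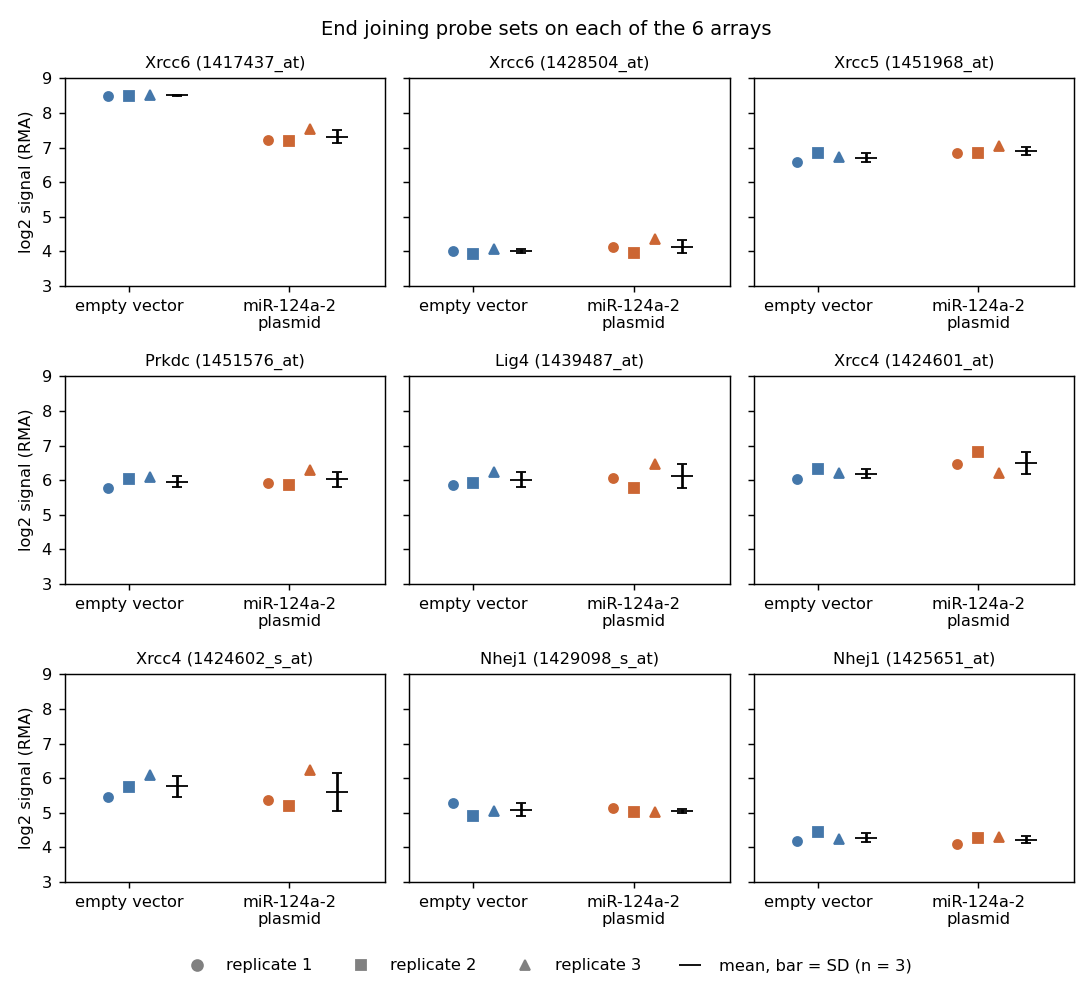
Log2 signal (RMA) of each end joining probe set on the 6 arrays, by group, with markers for the replicate number and a bar for the mean and SD (n = 3). The brighter Xrcc6 probe set is the only panel where the groups separate, at 8.48 to 8.53 against 7.18 to 7.55.

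Ku80 is unstable without Ku70 as a protein, but the transcript of its gene did not follow that of Xrcc6. Xrcc5 (1451968_at) read 6.57, 6.84 and 6.73 with the empty vector and 6.84, 6.83 and 7.04 with the plasmid. The groups overlapped, and the plasmid mean was the higher, with 6.90 ± 0.12 against 6.71 ± 0.14 (SD, n = 3 per group) and a log2 difference of 0.19 (SE 0.11). Within narrow and wide arrays the value was 0.26 and 0.25. Taken array by array, the log2 difference of Xrcc6 was 1.37 below that of Xrcc5, where the SD of the Xrcc6 to Xrcc5 ratio was 0.13 among empty vector arrays and 0.08 among plasmid arrays.

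Prkdc, the kinase that Ku brings to the end, was close to level. Its probe set (1451576_at) read 5.77, 6.03 and 6.10 with the empty vector and 5.91, 5.86 and 6.28 with the plasmid. The values interleaved, and the log2 difference was 0.05 (SE 0.14). The 3 wide arrays read 6.03 to 6.28 and the 3 narrow arrays 5.77 to 5.91, so this transcript sorted by array set and not by group, with wide above narrow by 0.29.

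In the ligation step, no probe set of Lig4, Xrcc4 or Nhej1 separated the groups. Lig4 (1439487_at), the catalytic ligase, read 5.85, 5.92 and 6.25 with the empty vector and 6.07, 5.78 and 6.48 with the plasmid, a log2 difference of 0.10 (SE 0.19). Its highest value came from replicate 3 in each group, and both lay among the wide arrays.

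Xrcc4, the scaffold of the ligase, had 2 probe sets, both assigned through the same database entry, and their differences had opposite signs. The first (1424601_at) read 6.04, 6.31 and 6.22 with the empty vector and 6.46, 6.81 and 6.20 with the plasmid, a log2 difference of 0.30 (SE 0.16). That positive value came from plasmid replicates 1 and 2, since replicate 3 lay within the empty vector range. The second (1424602_s_at, where the suffix marks probes shared between transcripts) read 5.46, 5.73 and 6.08 with the empty vector and 5.38, 5.19 and 6.23 with the plasmid, a log2 difference of -0.16 (SE 0.27). Its 3 narrow arrays read 5.19 to 5.46 and its 3 wide arrays 5.73 to 6.23, a mean gap of 0.67 that was several times its difference between groups. Within array sets the first probe set had 0.60 (narrow) and -0.07 (wide), and the second -0.17 and 0.32, so neither kept its sign.

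Nhej1, which encodes XLF, was level in both of its probe sets. The brighter (1429098_s_at) read 5.29, 4.91 and 5.06 with the empty vector and 5.13, 5.01 and 5.02 with the plasmid, a log2 difference of -0.03 (SE 0.12). The other (1425651_at) read 4.17, 4.44 and 4.24 against 4.09, 4.28 and 4.29, a difference of -0.06 (SE 0.11), and with a mean of 4.25 it was dimmer than the median probe set.

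**Figure D2:**
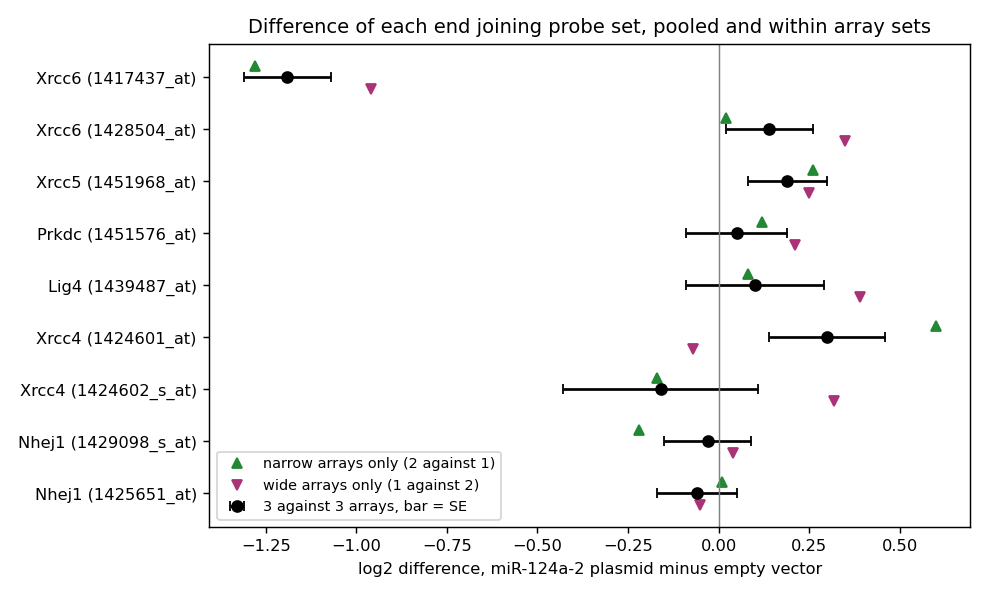
Log2 difference (miR-124a-2 plasmid minus empty vector) of the 9 probe sets, with the SE of the fit as a bar, and the same difference in the narrow arrays alone and in the wide arrays alone. The brighter Xrcc6 probe set stands at -1.19, and the other 8 lie between -0.16 and 0.30.

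Across the 6 genes, 4 probe sets had a log2 difference below 0 and 5 above it, and the median was 0.05, against 0.00 for all probe sets. Non-overlapping groups were seen in 1 of the 9, lower with the plasmid, and in 0 in the higher direction, where 6.96% and 6.27% of all probe sets had non-overlapping groups lower and higher. In the fit over all probe sets with limma, 121 (0.268%) had an adjusted p under 0.05, of which 94 (0.208% of all) were lower with the plasmid and 27 higher. The brighter Xrcc6 probe set was among those 94, and the other 8 were not among the 121. That membership adds nothing to the choice of the gene, which was made with the contrast known. The call also depended on single arrays. With 1 array left out the Xrcc6 difference was -1.20, -1.19 and -1.17 without empty vector replicates 1, 2 and 3 and -1.14 and -1.12 without plasmid replicates 1 and 2, and in these 5 fits it was not called. Without plasmid replicate 3 it was -1.30 and was called. Over all probe sets the count of calls fell to 0 without any of the empty vector arrays or without plasmid replicate 1 (2309 to 4247 at an unadjusted p under 0.05 in limma), to 12 without plasmid replicate 2, and was 352 without plasmid replicate 3.

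**Figure D3:**
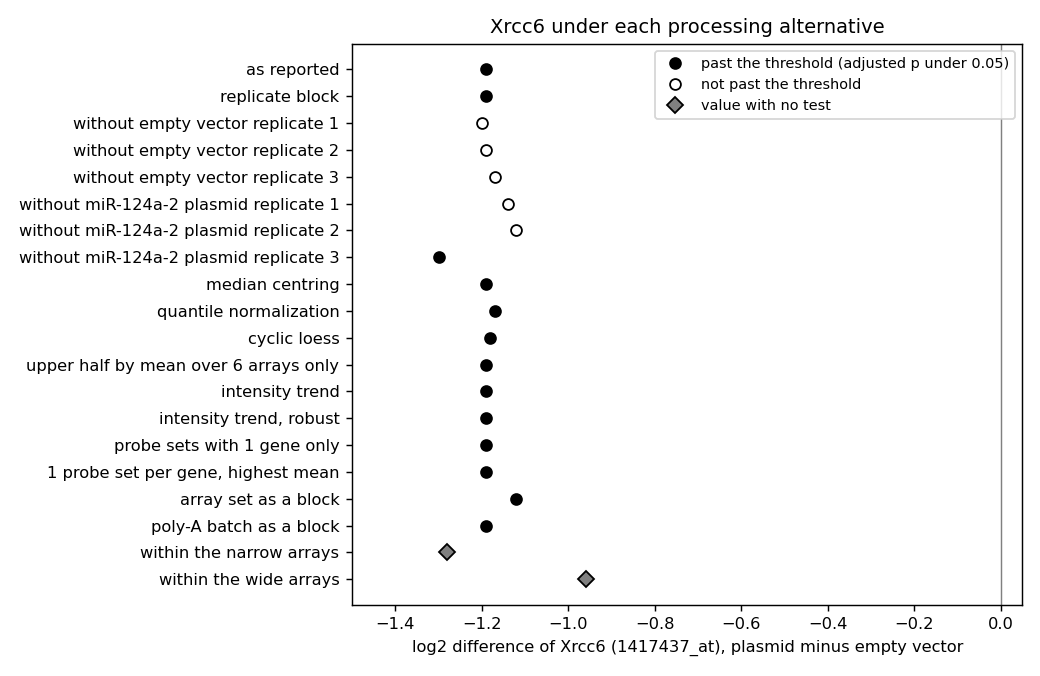
Log2 difference of the brighter Xrcc6 probe set (1417437_at) as reported and under each processing alternative, with filled circles where it passed an adjusted p under 0.05 over all features tested, open circles where it did not, and diamonds for values with no test. The difference lies between -1.30 and -0.96 throughout, and the 5 open circles are fits with 1 array fewer.

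The genes whose pattern over the 6 arrays was most like that of each end joining gene were sought among 11771 other genes by Pearson correlation with its brightest probe set. The arrays form 2 groups and 2 array sets that all genes share, so high values are common and are given as a description. For Xrcc6 the closest was Ptbp1, the splicing repressor of non-neuronal cells that miR-124 is known to target, with r = 0.999 and a log2 difference of -1.24. Next came Lclat1 and Galnt12 (r = 0.998 each), with differences of -0.99 and -1.07, and 520 genes had r over 0.9. For Xrcc5 the closest were Aptx and Megf9 (r = 0.991 each, differences of 0.25 and 0.72) and Cldn12 (r = 0.988, 0.20), and 251 genes had r over 0.9. Aptx encodes aprataxin, which clears aborted ligation products from DNA ends. For Prkdc the closest genes were Tanc2, Fem1c and Trak2 (r = 0.994 each), and for Lig4 they were Hars, Hnrnpul2 and Atad2b (r = 0.997, 0.994 and 0.990), all 6 with differences of at most 0.12. The brighter Xrcc4 probe set was most like Cryz (r = 0.998) and that of Nhej1 most like Ubr4 (r = 0.986).

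Other break repair genes, single-strand break repair included, were read from 5 further lists. These name 58 genes, 51 of them with a listed probe set (110 probe sets in all). With limma, 0 of the 110 passed at an adjusted p under 0.05. With the array set as a block 3 passed, all lower: Fen1 (-0.59, adjusted p = 0.0436), Mad2l2 (-0.51, adjusted p = 0.0455) and Exo1 (-0.59, adjusted p = 0.0474). Without plasmid replicate 3, both brighter Exo1 probe sets passed (adjusted p = 0.0208 and 0.0224). At an unadjusted p under 0.05, 25 were lower and 2 higher with the plasmid, or 22.7% lower, where 4.76% of all probe sets were lower and 3.42% higher by that rule. Brightness was not matched there, since 78 of the 110 were brighter than the median probe set. In a limma fit of the brighter probe sets only, 21 of the 78 were lower and 1 higher at an unadjusted p under 0.05. By that rule 2787 of all 22550 brighter probe sets differed in either direction. Of the 110, 82 (74.5%) had a log2 difference below 0, against 49.3% of all probe sets, and the median was -0.13. Probe sets of the same gene are not independent of each other. The lists were also chosen with earlier results of these data known, so these shares are a description. These genes were also brighter in wide than in narrow arrays, with a median gap of 0.16, and 2 of the 3 narrow arrays were plasmid arrays. Their median was -0.12 within narrow and -0.11 within wide arrays.

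Genes that work beside the end joining core did not lean in either direction. The end processing and accessory list, with nucleases, polymerases and end cleaners, had 10 of 13 genes measured and a median of 0.00 over 18 probe sets, 9 of them below 0. Wrn, a RecQ helicase, had -0.31 (SE 0.16, adjusted p = 0.717 in limma) in the dimmest of its 3 probe sets, and -0.03 and -0.22 in the others. Tdp2, which removes topoisomerase II from DNA ends, had -0.28 (SE 0.09, adjusted p = 0.387). Tdp2 read 8.28, 8.43 and 8.39 with the empty vector and 8.07, 8.06 and 8.12 with the plasmid, so its groups did not overlap although it did not pass. Dntt, the polymerase that adds bases at antigen receptor joints, lay between 3.23 and 4.49 in its 3 probe sets.

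The 53BP1 branch, which protects ends from resection and so steers breaks to end joining, had a median of -0.11 over 22 probe sets of 9 genes. Rif1, the effector that 53BP1 recruits, had -0.67 in 1 of its 4 probe sets (SE 0.22, adjusted p = 0.413) and -0.46 to -0.25 in the others. Mad2l2, a subunit of the shieldin complex, had -0.63 (SE 0.15, adjusted p = 0.188). Mad2l2 read 8.38, 8.73 and 8.65 with the empty vector and 7.77, 7.85 and 8.24 with the plasmid, without overlap. The lowest Rif1 probe set and that of Mad2l2 were brighter in wide than in narrow arrays, by 0.72 and 0.54. The median gap of this branch was 0.02. Within the narrow arrays the differences of Rif1 and Mad2l2 were -0.63 and -0.57, and within the wide arrays -0.33 and -0.45. Break sensing and checkpoint kinase genes had a median of -0.13, with 19 of 20 probe sets below 0. The checkpoint kinase gene Chek1 had the 2 lowest values of that list, -0.61 and -0.52 (adjusted p = 0.435 and 0.700), and in both of these the groups overlapped. Both were brighter in wide than in narrow arrays, by 0.69 and 0.79, where the list's median gap was 0.25. Their differences were -0.36 and -0.51 within the narrow arrays and -0.50 and -0.07 within the wide arrays. The other Chek1 probe sets, all dimmer than the median probe set, had 0.03, -0.06 and -0.28.

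Homologous recombination, the pathway that copies the sequence back from the sister chromatid, had the lowest median of the 5 lists, -0.23 over 31 probe sets of 14 genes. Of these, 24 were below 0. At an unadjusted p under 0.05, 13 were lower (41.9%, against 4.76% of all probe sets) and 0 higher, and 11 had non-overlapping groups, all lower (35.5%, against 6.96% of all probe sets). This list was chosen with earlier results of these data known, and brightness was not matched. Several of its genes have repeated probe sets, so these shares are a description. Exo1, the exonuclease that resects ends, had -0.80 and -0.70 in its brightest probe sets (SE 0.18 and 0.15, adjusted p = 0.156 and 0.141). The second of them (1418026_at) read 7.58, 7.72 and 7.77 with the empty vector and 6.88, 6.76 and 7.31 with the plasmid, without overlap. Both of these Exo1 probe sets were brighter in wide than in narrow arrays, by 0.61 and 0.52. Their differences were -0.88 and -0.76 within the narrow arrays and -0.46 and -0.43 within the wide arrays. The remaining Exo1 probe set, dimmer than the median probe set, had 0.04. The list's median gap between wide and narrow arrays was 0.17, and its median difference between groups was -0.18 in narrow and -0.16 in wide arrays. Alternative end joining and single-strand break repair had a median of -0.16 over 19 probe sets of 8 genes, 15 of them below 0. There the flap nuclease gene Fen1 had -0.67 (SE 0.13, adjusted p = 0.109) in the dimmer of its 2 probe sets and -0.32 in the brighter. Lig1, the replicative ligase, had -0.48 (SE 0.10, adjusted p = 0.121). The groups did not overlap in Lig1 or in any of the Fen1 probe sets. In this list of 19 probe sets, 7 had non-overlapping groups lower with the plasmid (36.8%, against 6.96% of all probe sets). In the higher direction there was 1, against 6.27% of all probe sets. These shares too are a description. Several genes of these lists also serve DNA replication, and the part of cell proliferation in their values was not tested.

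**Figure D4:**
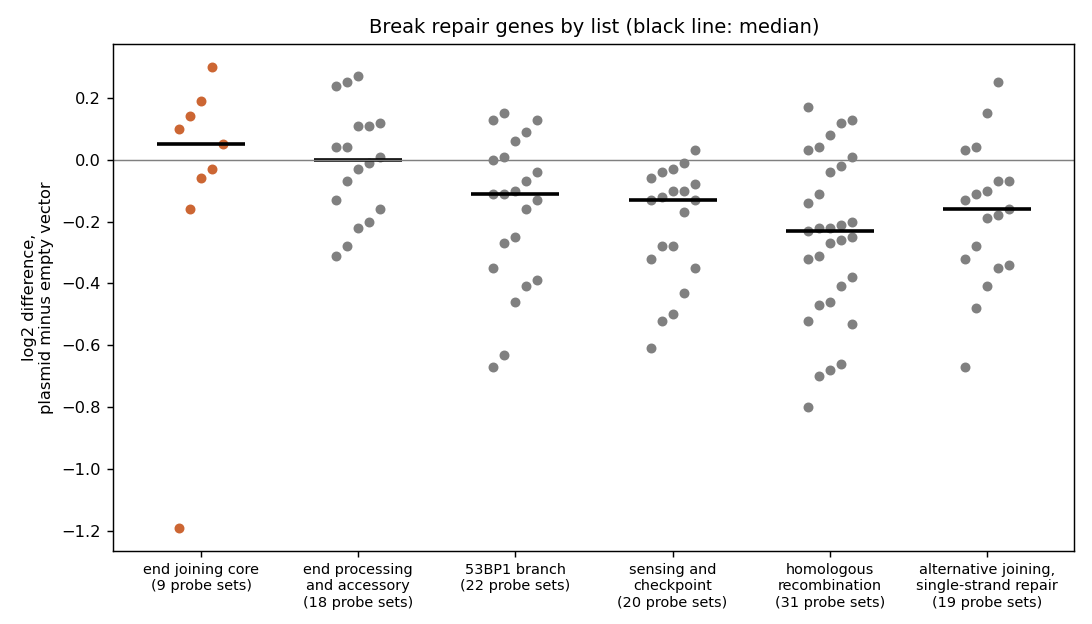
Log2 difference (plasmid minus empty vector) of every probe set in the end joining core and in 5 other break repair lists, with a black line at each list's median. The brighter Xrcc6 probe set at -1.19 lies below every other point, the next being -0.80, while the medians run from 0.05 in the core to -0.23 in homologous recombination.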

How the data were processed

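Per the labels, total RNA (Trizol) of 3 empty vector and 3 miR-124a-2 plasmid samples gave biotin-labelled cRNA from 6 ug. The values deposited by the authors are log2 signals, for which the submitters' processing notes name RMA. The version, probe definitions and filters are not given in the sources used here. As usually run, RMA includes quantile normalization, under which a shift common to most transcripts would not be seen. The interquartile ranges of the deposited values ran from 3.06 to 3.35 between arrays, so whether that step was applied here cannot be told. Of 45101 probe sets, the platform annotation of 2016 gave 34958 exactly 1 gene and 932 several, and did not list 9211.

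All probe sets were compared, each on its own, with limma 3.58.1 in R 4.3.3 (lmFit, then eBayes without a block, two-sided), and p-values were adjusted over all of them by Benjamini-Hochberg, at a threshold of 0.05. SE values are from this fit, and folds are 2 to the power of the log2 difference. Members and lists were chosen with earlier results of these data known. All 9 member probe sets are given. Of each other list, the 2 probe sets with the largest difference were named, as none passed, and for likeness the 3 closest genes brighter than the median probe set were sought. Other genes were named after their values were seen (Rag1, Dntt, Brca1). Alternatives were blocks, left-out arrays, normalizations, filters and variance models.

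Same-numbered arrays did not pair in all cases: their deviations from group means correlated at 0.58, 0.03 and 0.56. Tested on simulated data for this comparison (45101 probe sets, 20 draws), the fit found 9.50% of differences of 0.5 and 64.4% of differences of 1, and 4.08% of its calls fell on unchanged probe sets. The simulated noise was independent between probe sets and arrays, with 200 probe sets changed and no array sets. These shares therefore need not hold for the calls in the real arrays. Arrays give no read depth, and their number limits the precision.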

Additional observations from a re-analysis of the deposited data

How the results depend on the processing

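The brighter Xrcc6 probe set kept its direction in 19 of 19 alternatives (-1.30 to -0.96) and its call in 12 of the 17 with a test. The alternatives reuse the same arrays, whose groups do not overlap in this probe set. Leaving out or splitting arrays could therefore not reverse the direction. The filters and variance models cannot change the log2 difference of a probe set that is kept. The blocks for the replicate and the poly-A level, balanced over the groups, cannot change it either. Of 166 member values under alternatives, 160 moved by less than the SD between replicates, and part of these were fixed in advance in this way. The other 6 were values within an array set, where 1 group has a single array. Within the narrow arrays they were 0.60 for Xrcc4 (1424601_at) and -0.22 for Nhej1 (1429098_s_at). Within the wide arrays they were -0.96 and 0.35 for the Xrcc6 probe sets (1417437_at and 1428504_at) and -0.07 and 0.32 for those of Xrcc4 (1424601_at and 1424602_s_at). The count of all probe sets called was 121. It was 0 to 352 with 1 array left out, 39 with median centring, 262 with quantile normalization, 244 with cyclic loess, 215 with an intensity trend, 229 with a robust trend, 509 and 339 with a block for the array set or for the poly-A level, and 673 with the replicate block. The cause was not tested, other than that left-out fits have fewer arrays. Other break repair genes had 0 calls. They had 0 to 2 with 1 array left out (Exo1, without plasmid replicate 3), 1 with quantile normalization and 1 with cyclic loess (Fen1), 3 with the array set as a block (Exo1, Fen1 and Mad2l2) and 6 with the replicate block (Exo1 and Brca1 with 2 probe sets each, Rif1 and Mad2l2), all lower with the plasmid. The replicate numbers do not pair all arrays. Plasmid replicate 2 did not correlate best with its own number (0.03, against 0.09 with empty vector replicate 1). The medians of the homologous recombination list stayed between -0.313 and -0.159 over all alternatives, and that of the end joining core ran from -0.077 to 0.215. Dim probe sets of Xrcc6 and Nhej1 limit what their small differences can show.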
